A study of Mus musculus with 48 samples.

Results

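The expression of 10 mouse genes whose human counterparts lie at Alzheimer's disease risk loci was followed through 8 groups of mice. They were chosen by name, as a list of risk genes: Inpp5d, Plcg2, Abi3, Spi1, Cd33, Bin1, Picalm, Clu, Sorl1 and Abca7. Each symbol matched 1 of the 48709 Ensembl gene identifiers that carry read counts. RNA-sequencing of brain tissue from 46 C57BL/6J mice was analysed, and the study used male animals. The study asked how loss of Fmn2, which encodes the actin-nucleating protein Formin 2, and amyloid pathology change gene expression.

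The dentate gyrus (DG) of the hippocampus was taken from 5 wild-type and 5 Fmn2-/- mice at 3 months of age and from 3 wild-type and 5 Fmn2-/- mice at 8 months. An amyloid cross of 3 months, also from the DG, comprised 7 mice labelled FMN2-/-_APP and 9 labelled FMN2 +/+ APP. The mice called APP are APPPS1-21 animals, which carry human transgenes for mutant amyloid precursor protein and presenilin under the neuronal Thy1 promoter and deposit amyloid from an early age. No mouse of the cross lacked APP. A further experiment at 4 months held 6 APP and 6 wild-type mice. Its titles name the prefrontal cortex (PFC), while its tissue field names the DG. The age of this experiment is that of the label, and the study's text gives its comparison of APP with wild-type mice a younger age. Each library came from bulk tissue, so fewer cells of a type and less RNA per cell cannot be told apart in any result given here. The 2 runs of each of 2 mice of the cross were summed, and p-values measure the spread between these samples.

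Between 6818809 and 43921030 reads per mouse fell on genes. The deepest library was 8-month wild-type replicate 1, the only 8-month library on lane 6. The other 8-month libraries, all on lane 7, were the shallowest, with 6818809 to 11675280 reads. Levels are given as CPM, the reads of a gene scaled to a common library size, after TMM scaling, edgeR's correction for library composition, over all mice. Fmn2 itself ran against the labels of the cross. Its level was 90.9 ± 6.86 CPM (SD, n = 7) in libraries labelled FMN2-/-_APP and 20.5 ± 1.48 CPM (SD, n = 9) in libraries labelled FMN2 +/+ APP, whereas it was lower in the Fmn2-/- than in the wild-type groups without APP at 3 and at 8 months. The cross is therefore named by its labels throughout. The 4-month libraries were low in 6 markers of DG granule cells, with summed levels of 152 to 201 CPM against 658 to 1260 CPM in all other groups, and high in 6 markers of cortical neurons, at 638 to 729 CPM against 120 to 351 CPM. They are called PFC libraries here, after their titles. The replicates 2 and 3 of the 8-month Fmn2-/- group differed by a chi-square of 1.62 per degree of freedom, and were kept as 2 samples. Repeat runs of the same mouse gave 1.72 and 2.15. This statistic grows with depth, and the replicates held 9175551 and 9943023 reads, against 39403392 and 41603296 over both runs. The values therefore cannot show whether these replicates are closer than repeat runs. Within their own group, where libraries held 9175551 to 11675280 reads, every other pair differed more, by 3.50 to 6.40. Whether the 2 replicates share a mouse was not tested. Choroid plexus markers summed to 9160 and 6010 CPM in replicates 4 and 5 labelled FMN2 +/+ APP and to 4130 CPM in Fmn2-/- replicate 4 of 3 months.

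Genetic risk for late-onset Alzheimer's disease touches innate immunity, endocytosis and lipid handling. Microglia, the resident macrophages of the brain, gather at amyloid plaques, where the receptor Trem2 and its adaptor Tyrobp signal through kinases to the phospholipase encoded by Plcg2. The lipid phosphatase encoded by Inpp5d restrains such signalling, and Cd33 is a sialic acid-binding receptor of myeloid cells. Spi1 encodes the transcription factor that establishes the myeloid lineage, and Abi3 an Abl interactor of the actin-regulating WAVE complex. Bin1 and Picalm act on membrane curvature and clathrin-mediated endocytosis, Sorl1 is a sorting receptor that directs the amyloid precursor protein between endosomes and the Golgi, Clu encodes the secreted chaperone clusterin, and Abca7 encodes a lipid transporter.

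In mm10 coordinates the genes with myeloid roles lie on chromosome 1 from 87620312 to 87720507 (Inpp5d), chromosome 8 from 117498291 to 117635142 (Plcg2), chromosome 11 from 95830074 to 95842476 (Abi3), chromosome 2 from 91082390 to 91115756 (Spi1) and chromosome 7 from 43524216 to 43544428 (Cd33). Of the others, 4 lie on chromosome 7 from 90130213 to 90213465 (Picalm), chromosome 14 from 65968483 to 65981547 (Clu), chromosome 9 from 41964720 to 42124297 (Sorl1) and chromosome 10 from 79996494 to 80015572 (Abca7). All 10, Bin1 included, are protein-coding in GENCODE M21. Abi3 is overlapped on the opposite strand by the protein-coding genes Zfp652, Phospho1 and Gngt2. Whether reads were counted by strand is not given in the sources used here, so part of the Abi3 count cannot be assigned with certainty.

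RefSeq promoter sequences (250 bases before to 50 after the start, GRCm38.p6) were used for 6 of the 10 genes. Of these, 4 are shown because 3 belong to genes that rose together in APP mice and the fourth to one that did not. Capitals mark GAGGAA or its complement on either strand, a purine-rich core bound by the ETS family of transcription factors, to which the Spi1 product belongs. The Inpp5d promoter (chr1:87620062-87620361, plus strand) held 2 matches, the Cd33 promoter (chr7:43533122-43533421, minus strand, a start inside the GENCODE gene) 1, the Plcg2 promoter (chr8:117498025-117498324, plus strand) 0 and the Picalm promoter (chr7:90129963-90130262, plus strand) 2. The promoters not shown, 2 of Sorl1 and 1 of Abca7, held 0 matches.
Inpp5d: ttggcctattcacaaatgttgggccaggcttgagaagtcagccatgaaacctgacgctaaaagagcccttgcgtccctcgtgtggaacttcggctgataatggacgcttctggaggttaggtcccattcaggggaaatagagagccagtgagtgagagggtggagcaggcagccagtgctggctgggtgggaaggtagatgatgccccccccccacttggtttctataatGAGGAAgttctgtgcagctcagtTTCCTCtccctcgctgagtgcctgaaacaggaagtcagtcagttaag
Cd33: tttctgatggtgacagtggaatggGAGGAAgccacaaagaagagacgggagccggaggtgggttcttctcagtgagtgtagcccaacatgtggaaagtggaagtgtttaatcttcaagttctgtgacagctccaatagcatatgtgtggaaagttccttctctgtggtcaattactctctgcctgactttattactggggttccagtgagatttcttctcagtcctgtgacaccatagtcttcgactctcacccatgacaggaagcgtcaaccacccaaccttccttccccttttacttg
Plcg2: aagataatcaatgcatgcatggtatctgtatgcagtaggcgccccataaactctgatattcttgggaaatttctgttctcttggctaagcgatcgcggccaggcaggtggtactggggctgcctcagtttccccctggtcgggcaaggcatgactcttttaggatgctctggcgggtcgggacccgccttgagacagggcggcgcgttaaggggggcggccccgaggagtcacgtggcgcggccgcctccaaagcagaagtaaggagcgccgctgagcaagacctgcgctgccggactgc
Picalm: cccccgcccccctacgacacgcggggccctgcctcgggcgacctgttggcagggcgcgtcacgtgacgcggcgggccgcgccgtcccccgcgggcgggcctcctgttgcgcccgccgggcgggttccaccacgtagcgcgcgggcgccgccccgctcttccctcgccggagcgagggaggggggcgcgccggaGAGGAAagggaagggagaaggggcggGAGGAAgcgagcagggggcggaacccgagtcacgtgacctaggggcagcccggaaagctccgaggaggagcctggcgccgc
Of all 32851 promoters of this length, 28.3% hold at least 1 match, and the letters are a description of these windows only. Abi3, Clu and Spi1 had no entry, and no promoter of Bin1 was used.

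The 10 genes differed widely in level. Per kilobase of exon, in wild-type DG of 3 months, Clu stood highest at 261 ± 24.7 CPM per kb (SD, n = 5), followed by Bin1 at 48.9 ± 4.15, Sorl1 at 33.5 ± 1.49 and Picalm at 13.7 ± 0.187 CPM per kb. The remaining 6 lay between 0.177 and 2.18 CPM per kb, with Plcg2 the highest of them and Abi3 the lowest. Abi3 had 4 to 72 reads in a mouse, so its values carry the largest counting error.

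Amyloid in the PFC experiment came with higher levels of 4 of the 10 genes, all 4 with myeloid roles: Spi1, Plcg2, Cd33 and Inpp5d. None was lower. Over all 16733 genes tested, 3.81% were called at an adjusted p under 0.05 (edgeR's quasi-likelihood test, Benjamini-Hochberg adjustment over all genes, as in every comparison here). The levels of the same 4 genes did not overlap between the 6 APP and the 6 wild-type mice, which held for 3.37% of all genes tested. DESeq2 also called 4.

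Spi1 changed most. Its level ran from 2.61 to 3.38 CPM in wild-type mice (median 2.74) and from 4.83 to 6.45 CPM in APP mice (median 5.74), a log2 fold change of 1.01 (SE 0.11, adjusted p = 1.18e-05). Every APP mouse thus lay above every wild-type mouse, and the fitted level was 2.01-fold higher. Plcg2 ran from 3.1 to 5.1 CPM in wild-type mice (median 3.67) and from 5.36 to 8.44 CPM in APP mice (median 6.64), with a log2 fold change of 0.80 (SE 0.14, adjusted p = 0.00102).

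Cd33 and Inpp5d were higher as well. Cd33 ran from 11 to 15.2 CPM (median 12.6) in wild-type and from 17.3 to 24.3 CPM (median 19.8) in APP mice, with a log2 fold change of 0.66 (SE 0.095, adjusted p = 0.000208). Inpp5d ran from 16.9 to 22.3 CPM (median 19.3) and from 25.3 to 34.8 CPM (median 29.4), with a log2 fold change of 0.63 (SE 0.086, adjusted p = 0.00012). For Abi3 the ranges overlapped, with 1.03 to 1.7 CPM in wild-type (median 1.22) and 1.28 to 2.63 CPM in APP mice (median 1.98). Its log2 fold change of 0.59 (SE 0.18) did not pass the threshold (adjusted p = 0.0915), and did so without APP replicate 6, the lowest APP mouse (log2 fold change 0.70, adjusted p = 0.0181).

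**Figure D1:**
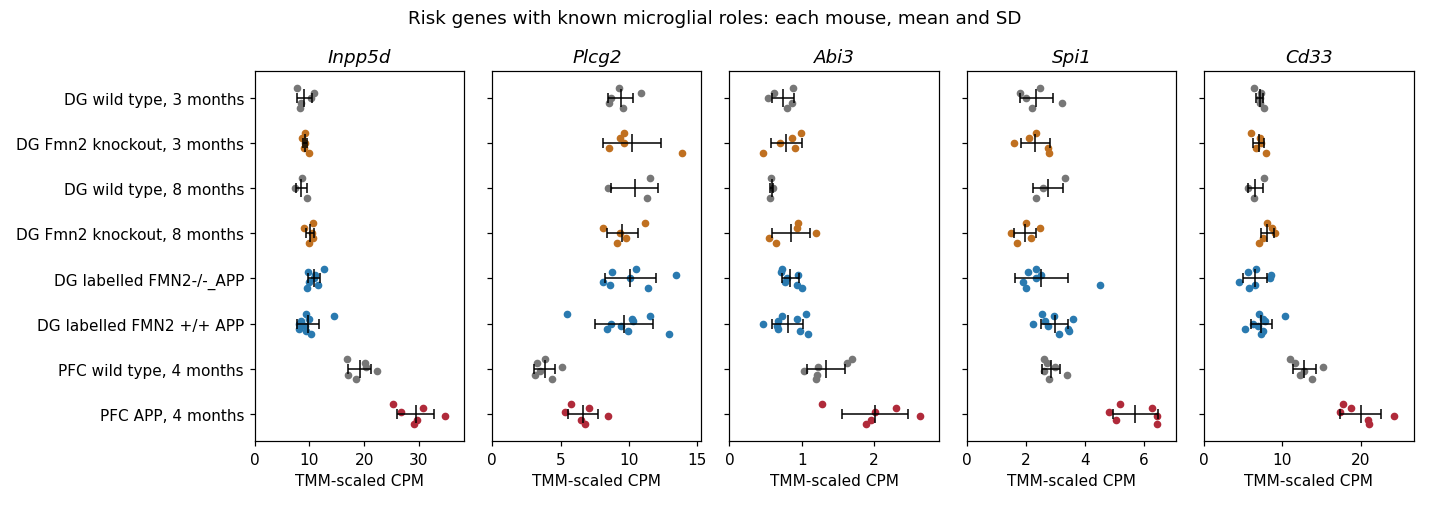
TMM-scaled CPM (x axis, linear from 0, a scale of its own for each gene) of Inpp5d, Plcg2, Abi3, Spi1 and Cd33 in the 8 groups (y axis). Points are mice, the vertical tick is the group mean and the bar the SD. In PFC libraries the 6 APP mice lie above the 6 wild-type mice for each gene but Abi3, where the ranges of 1.28 to 2.63 CPM and 1.03 to 1.7 CPM overlap.

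The 5 genes of endocytosis, sorting and lipid transport had small fitted differences in the same mice, with intervals that did not reach a log2 change of 0.25. Bin1, on chromosome 18 from 32377230 to 32435737, was at 236 ± 8 CPM in APP and 246 ± 4.39 CPM in wild-type mice (SD, n = 6 each). The 95% interval of its log2 fold change ran from -0.126 to 0.0239. The interval was -0.0531 to 0.135 for Picalm, -0.0285 to 0.187 for Clu, -0.211 to -0.0273 for Sorl1 and -0.195 to 0.129 for Abca7. The interval of Sorl1 lay below 0 before adjustment, but its adjusted p was 0.182. Sorl1 ran from 425 to 493 CPM in APP mice (median 464) and from 479 to 541 CPM in wild-type mice (median 501), with overlap. The 5 oligodendrocyte markers Mbp, Mog, Mag, Mobp and Cnp, of a cell type rich in Bin1, summed to 924 to 1430 CPM in APP and 1450 to 4240 CPM in wild-type mice, without overlap. Their fitted log2 fold changes ran from -0.85 for Mobp to -0.51 for Cnp, with edgeR adjusted p-values from 0.0647 for Mbp to 0.142 for Cnp. Their part in the Bin1 value was not tested.

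**Figure D2:**
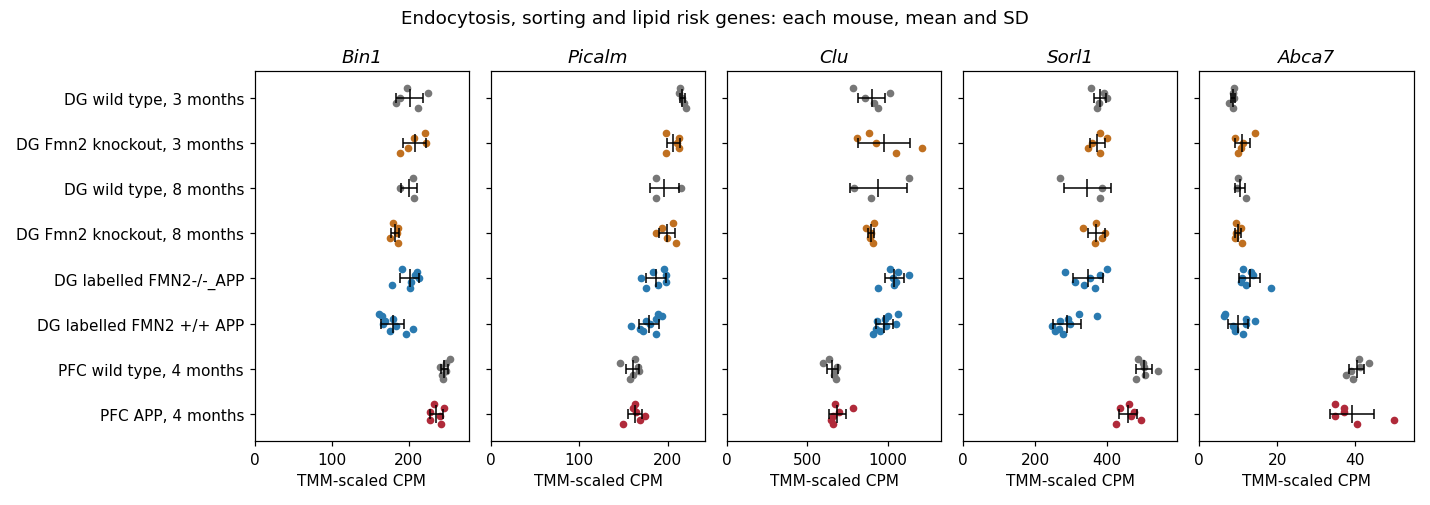
TMM-scaled CPM (x axis, linear from 0, a scale of its own for each gene) of Bin1, Picalm, Clu, Sorl1 and Abca7 in the 8 groups (y axis), drawn with points for mice, a tick for the mean and a bar for the SD. Abca7 stands at 34.9 CPM or above in every PFC library and at 18.5 CPM or below in every DG library, while the APP and wild-type PFC ranges overlap for all 5 genes.

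Lists of partner genes were counted in the PFC contrast, in which 3.81% of all genes were called and the median log2 fold change was -0.00041. Of 11 genes between Trem2 and Plcg2, 8 were higher and none lower in APP mice (median log2 fold change 0.96), among them the adaptor Tyrobp (2.29), Trem2 itself (1.96), the phosphatase gene Ptpn6 (1.31) and the adaptor Lat2 (1.03), with adjusted p from 9.7e-12 to 9.52e-05. Of 14 other myeloid transcription factors, 7 were higher (median 0.33), led by Irf8 (1.45) and Runx1 (1.30). In the WAVE complex list 3 of 12 genes were higher, of which Rac2 (0.82) and Nckap1l (0.71) are the haematopoietic forms and Cyfip1 changed by 0.21. By contrast 0 of 22 clathrin endocytosis genes and 0 of 17 sorting receptor and retromer genes were called in edgeR's test, with medians of -0.0046 and 0.0079. Of 33 other risk loci tested, 4 were higher, namely Trem2, the progranulin gene Grn (0.89), the protease gene Ctsh (0.78) and Apoe (0.27). These lists are described by counts only.

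Microglia markers moved with the same contrast. All 11 markers were higher in APP mice (log2 fold changes 0.45 to 1.33, median 0.77), and their summed level was 658 to 843 CPM against 391 to 419 CPM. Of 8 markers of plaque-associated microglia 7 were higher, with Cst7 at a log2 fold change of 7.80 and Clec7a at 6.61. The infiltrating myeloid markers summed to 0.558 to 1.13 CPM in APP and 0.365 to 1.41 CPM in wild-type mice, and none of the 5 passed the filter. Of 6 astrocyte markers 2 were higher, Gfap by 2.10 (adjusted p = 9.25e-10) and Aqp4 by 0.30 (adjusted p = 0.0032), while the other 4 lay between -0.051 and 0.056, and the list summed to 3380 to 4270 CPM in APP and 3470 to 4230 CPM in wild-type mice. The part of the astrocyte change in any result was not tested. When the level of each gene was expressed relative to the mean log2 CPM of the 11 microglia markers, the ranges of APP and wild-type PFC mice overlapped for all 5 genes with myeloid roles. The mean difference, APP minus wild type, was 0.13 for Spi1, -0.073 for Plcg2, -0.21 for Cd33, -0.24 for Inpp5d and -0.30 for Abi3 on the log2 scale. Whether cell number accounts for the higher levels was not tested. All 6 APP mice were sequenced on lane 7 and all 6 wild-type mice on lane 5, so lane and genotype cannot be told apart.

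**Figure D3:**
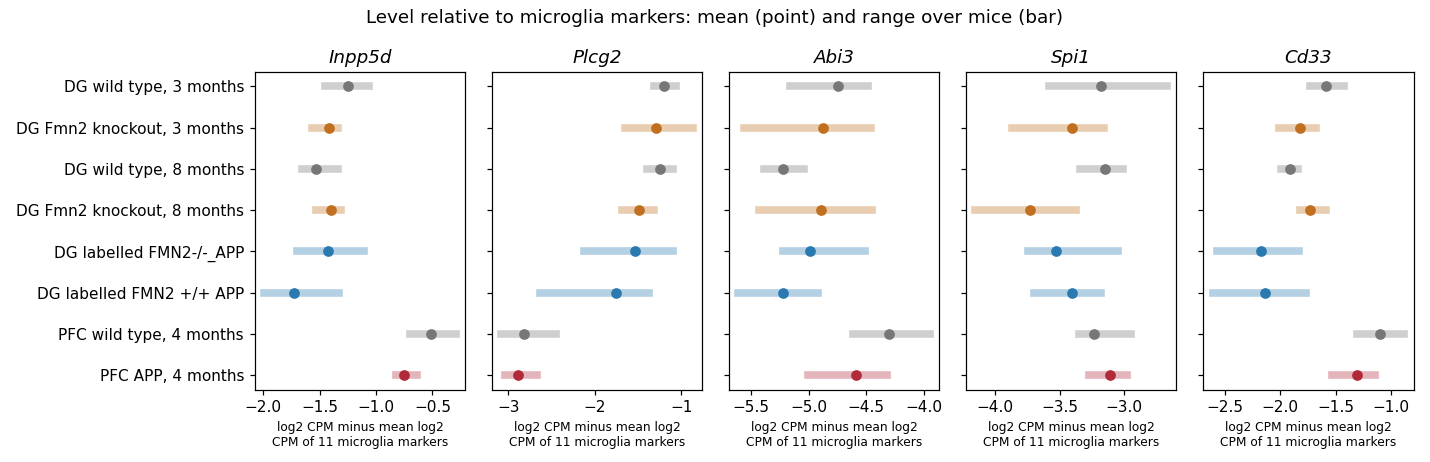
Level of each of 5 genes relative to microglia markers (x axis, log2 CPM minus the mean log2 CPM of 11 markers) by group (y axis), with the mean as a point and the range over mice as a bar. PFC APP and wild-type ranges overlap in every panel, and Plcg2 is at -2.89 and -2.82 in the PFC groups against -1.75 to -1.20 in the DG groups.

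In the DG the amyloid cross was set against the 3-month Fmn2 mice without APP. The contrast took the mean of both APP groups minus the mean of the wild-type and Fmn2-/- groups, and so does not depend on which label of the cross is right. APP and experiment cannot be told apart in it, and 49.4% of 17599 genes were called. Of the 10 risk genes 3 were called, all lower: Picalm, Sorl1 and Bin1. With a minimum log2 fold of 0.5 added to the call, 0 of the 10 and 2905 of the 17599 genes remained. Libraries labelled FMN2-/-_APP set against wild type alone had Abca7 (0.60, adjusted p = 0.00281) and Clu (0.21, adjusted p = 0.0274) called higher. In that fit Bin1 (0.0048, adjusted p = 0.962) and Sorl1 (-0.12, adjusted p = 0.245) were not called, and 6421 genes were called over all. In the whole contrast no gene with a myeloid role was called. Spi1 had a log2 difference of 0.23 (adjusted p = 0.167), Inpp5d 0.15 (adjusted p = 0.128), Abi3 0.10 (adjusted p = 0.594), Plcg2 0.011 (adjusted p = 0.941) and Cd33 -0.032 (adjusted p = 0.811).

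Picalm was at 187 ± 11.3 CPM (SD, n = 7) in libraries labelled FMN2-/-_APP and 179 ± 11.2 CPM (SD, n = 9) in those labelled FMN2 +/+ APP, against 216 ± 2.94 CPM in wild-type and 206 ± 7.54 CPM in Fmn2-/- mice (SD, n = 5 each). The log2 difference of -0.21 (SE 0.035, adjusted p = 1.33e-05) was 0.013 (adjusted p = 0.749) once each library was corrected for gene length and GC content. Sorl1 had a log2 difference of -0.25 (SE 0.06, adjusted p = 0.00095). Its mean was 288 ± 38.9 CPM (SD, n = 9) in libraries labelled FMN2 +/+ APP and 347 ± 40.7 CPM (SD, n = 7) in those labelled FMN2-/-_APP. The libraries labelled FMN2-/-_APP alone gave -0.12 against wild-type mice (adjusted p = 0.245) and -0.098 against Fmn2-/- mice (adjusted p = 0.442). Libraries labelled FMN2 +/+ APP alone kept Sorl1, Picalm and Bin1 called lower, both against wild-type and against Fmn2-/- mice. Over all genes those fits called 7305 and 4913. Bin1 differed by -0.11 (SE 0.046, adjusted p = 0.0428). Its call was lost in 14 of the 26 fits that left out 1 mouse, with values from -0.12 to -0.087. These mice were wild-type replicates 1, 4 and 5, Fmn2-/- replicates 4, 5 and 6, replicates 1, 2 and 5 labelled FMN2-/-_APP and replicates 3, 4, 5, 8 and 9 labelled FMN2 +/+ APP. The same oligodendrocyte markers were lower in the cross as well, 5 of 5 called, and neuron markers 4 of 4. Their part was not tested.

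Microglia markers were higher in the cross, 8 of 11 called with a median log2 difference of 0.57, and Trem2 (0.85) and Tyrobp (1.16) were also higher. Markers of plaque-associated microglia were higher for 6 of 8 and lower for 1, but varied among mice. Cst7 ran from 0 to 8.33 CPM in libraries labelled FMN2-/-_APP and from 0.0391 to 12.4 CPM in those labelled FMN2 +/+ APP. In PFC APP mice Cst7 ran from 30.1 to 41.3 CPM. Clec7a ran from 0.144 to 1.07 CPM and from 0.59 to 5.97 CPM in the same groups of the cross. Between these groups its log2 fold change was -2.68 (adjusted p = 0.0267), lower in libraries labelled FMN2-/-_APP. The difference between the PFC and the DG amyloid contrasts, which share no mice, was tested directly in 1 model. It was called for 5 of the 10 genes against 25.3% of 18276 genes: Plcg2 (0.78, SE 0.19, adjusted p = 0.00218), Spi1 (0.78, SE 0.21, adjusted p = 0.00519), Cd33 (0.68, SE 0.16, adjusted p = 0.00155), Inpp5d (0.46, SE 0.13, adjusted p = 0.00973) and Picalm (0.25, SE 0.058, adjusted p = 0.00162). All 5 were positive, so the log2 change with APP was higher in the PFC experiment. Corrected for gene length and GC content, Picalm was at 0.028 (adjusted p = 0.739) and no longer called, while the other 4 stayed called, between 0.49 and 0.89. A minimum log2 fold of 0.5 removed Inpp5d and Picalm. Over all genes it left 2031 called, and the gene length and GC correction 4854. Region, labelled age, experiment and lane all differ between the contrasts and cannot be told apart. Bin1 (0.054, adjusted p = 0.608) and Clu (-0.028, adjusted p = 0.849) were not called.

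**Figure D4:**
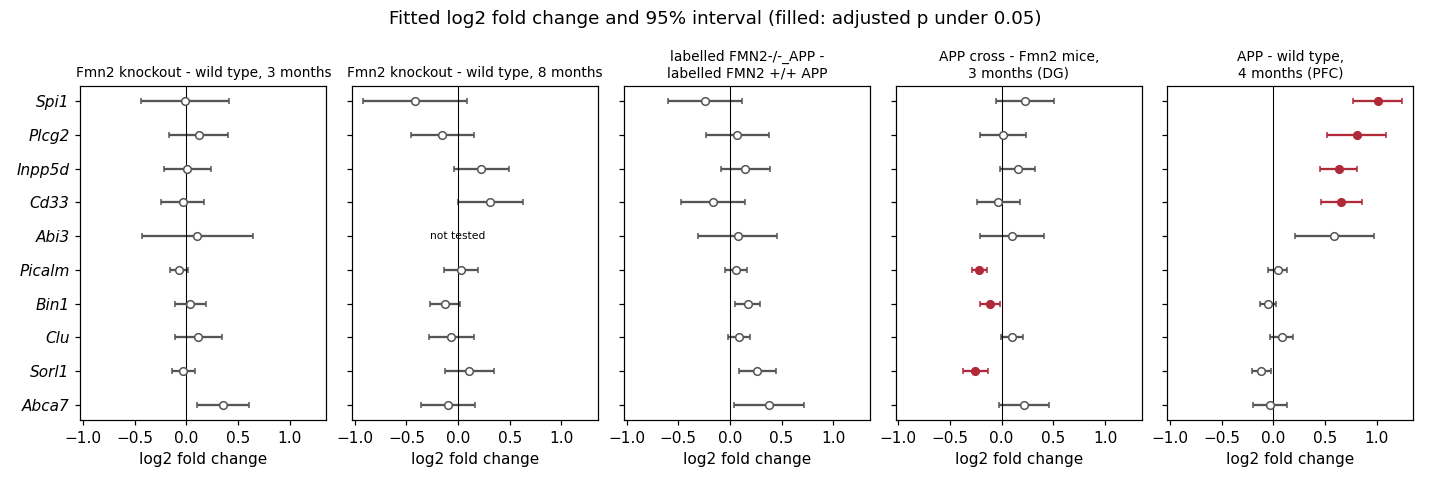
Fitted log2 fold change (x axis, shared) of the 10 genes (y axis) in 5 comparisons, with 95% intervals as bars. Filled red points passed an adjusted p of 0.05 and open points did not. The 4 filled points at the right are Spi1, Plcg2, Inpp5d and Cd33, and the 3 filled points of the DG amyloid contrast, Picalm, Bin1 and Sorl1, lie between -0.25 and -0.11.

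Loss of Fmn2 was compared at 3 and 8 months. At 3 months 0 of the 10 genes were called, against 0.0301% of 16630 genes, and DESeq2 also called 0. At an unadjusted p under 0.05 there was 1, Abca7, with 8.72, 7.68, 9.01, 8.65 and 8.98 CPM in wild-type and 9.86, 10.7, 11.1, 9.19 and 14.3 CPM in Fmn2-/- mice. These values did not overlap, as for 2.71% of genes tested, and the log2 fold change was 0.35 (SE 0.12, adjusted p = 0.333). Picalm was the other gene whose groups did not overlap, with 213 to 220 CPM in wild-type (median 216) and 198 to 213 CPM in Fmn2-/- mice (median 210) before rounding, and an adjusted p of 0.559. For the remaining 8 the log2 fold changes lay between -0.034 and 0.12. Lane 5 held the wild-type group and 1 Fmn2-/- mouse, lane 6 the remaining 4, and 0 genes of the 10 were called with lane in the model.

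At 8 months 9 genes were tested, Abi3 falling below the count filter, and 0 were called, against 1.13% of 14665 genes. This share rests on 166 genes, a count that ran from 4 without wild-type replicate 1 to 3417 without wild-type replicate 2 and stayed within 1.5 times only without wild-type replicate 3. At an unadjusted p under 0.05 there were 0, and DESeq2 called 0. Cd33 had 6.41, 5.61 and 7.59 CPM in wild-type and 7.05, 7.52, 9.11, 8.69 and 7.97 CPM in Fmn2-/- mice, for a log2 fold change of 0.31 (SE 0.14, adjusted p = 0.215). Spi1 had 2.33, 2.58 and 3.34 CPM and 1.71, 2.18, 1.5, 2.47 and 1.99 CPM, for a log2 fold change of -0.42 (SE 0.23, adjusted p = 0.292). Both pairs of groups overlapped. Only Bin1 did not overlap, at 207, 188 and 206 CPM in wild-type and 186, 176, 185, 186 and 179 CPM in Fmn2-/- mice (adjusted p = 0.258), and 11.7% of genes tested did not overlap either. The test of whether the Fmn2 difference changed with age called 0 of 10 genes, against 3.73% of 17046 genes, and DESeq2 called 0. The 635 genes behind this share became 8 without 8-month wild-type replicate 1 and 2846 without replicate 2 of that group. Abca7 alone had an unadjusted p under 0.05 there (log2 difference -0.46, SE 0.17, adjusted p = 0.12).

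Within the amyloid cross, libraries labelled FMN2-/-_APP, which had the higher Fmn2 counts, were set against those labelled FMN2 +/+ APP. The test called 0 of the 10 genes, against 1.57% of 16656 genes, and DESeq2 called 0. At an unadjusted p under 0.05 there were 3, Sorl1, Bin1 and Abca7, all higher in libraries labelled FMN2-/-_APP. Sorl1 ran from 282 to 399 CPM (median 352) against 248 to 373 CPM (median 278), a log2 fold change of 0.27 (SE 0.087, adjusted p = 0.127). It passed the threshold with lane as a covariate (0.35, adjusted p = 0.0247) and without replicate 8 labelled FMN2 +/+ APP, the highest of its group (0.32, adjusted p = 0.0353). Bin1 ran from 178 to 213 CPM (median 203) against 161 to 206 CPM (median 176), with a log2 fold change of 0.17 (SE 0.057, adjusted p = 0.14). Abca7 ran from 10.8 to 18.5 CPM (median 11.9) against 6.31 to 14.3 CPM (median 9.2), with a log2 fold change of 0.38 (SE 0.16, adjusted p = 0.246). The groups overlapped for all 10 genes, and only 0.546% of all genes tested did not overlap. Of the 5 genes with myeloid roles, the log2 fold changes lay between -0.24 (Spi1) and 0.15 (Inpp5d).

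Wild-type PFC libraries of 4 months were set beside wild-type DG libraries of 3 months. Region, labelled age, lane and experiment cannot be told apart here, 74.7% of 16661 genes were called, and 57.9% did not overlap. Of the 10 risk genes 9 were called, 6 higher in the PFC and 3 lower, and the same 9 did not overlap. A minimum log2 fold of 0.5 left 6 of the 10, without Bin1, Picalm and Sorl1, and 7508 of the 16661 genes. Corrected for gene length and GC content, Bin1 turned to -0.17 (adjusted p = 0.00353) and Abi3 was at 0.35 and not called (adjusted p = 0.111). With that correction 8 of the 10 genes were called, 4 in each direction, and 11919 genes over all. Abca7 stood out in size, at 40.3 ± 2.01 CPM (SD, n = 6) in the PFC and 8.61 ± 0.544 CPM (SD, n = 5) in the DG, a log2 difference of 2.17 (SE 0.06, adjusted p = 6.65e-13). It ranked 39 of all genes tested by p. Inpp5d (1.02), Abi3 (0.83), Cd33 (0.80), Sorl1 (0.36) and Bin1 (0.24) were also higher in the PFC. Plcg2 ran the other way from Inpp5d and Cd33. It had 9.57, 8.54, 8.67, 10.9 and 9.28 CPM in the DG and 3.1 to 5.1 CPM in the PFC (median 3.67), a log2 difference of -1.34 (SE 0.12, adjusted p = 1.7e-07). Clu (-0.51) and Picalm (-0.49) were also lower in the PFC, and Spi1 was not called (0.24, adjusted p = 0.163). Of the 11 microglia markers 9 were higher and 1 lower in the PFC, 6 of 6 granule cell markers were lower, and of 6 astrocyte markers, the cell type that secretes much of the brain's clusterin, 4 were lower and 1 higher. Their part was not tested.

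Ordered by group mean, Inpp5d and Cd33 had the same 2 groups on top, PFC APP (29.4 ± 3.33 and 20 ± 2.62 CPM) above PFC wild type (19.2 ± 2.13 and 12.8 ± 1.51 CPM, SD, n = 6 each), and the ranges of neighbouring DG groups below them overlapped at every step. Spi1 had PFC APP alone on top (5.71 ± 0.761 CPM, SD, n = 6), while the other 7 groups, from 1.97 to 2.98 CPM, overlapped neighbour by neighbour. Plcg2 had the reverse order of regions: the 6 DG groups, with means from 9.39 to 10.4 CPM, overlapped as neighbours, and their means lay above those of PFC APP (6.65 ± 1.08 CPM) and PFC wild type (3.86 ± 0.766 CPM, SD, n = 6 each). By range, 3 DG groups overlapped PFC APP (5.36 to 8.44 CPM), with lowest mice of 5.45 CPM in libraries labelled FMN2 +/+ APP, 8.1 CPM in 8-month Fmn2-/- mice and 8.11 CPM in libraries labelled FMN2-/-_APP. For Abi3 every neighbouring pair overlapped. Abca7 was 4.68-fold higher in its highest than in its lowest group, against 1.35-fold for Picalm and 1.37-fold for Bin1, the genes with the narrowest spread of group means.

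Variation among mice of the same group was described by correlations over all 46 mice after subtracting each group's mean from log2 CPM. They are given without a test, since depth, and in some groups lane, differed among the mice of a group. Inpp5d followed Cd33 (r = 0.573) and Plcg2 (r = 0.427), and Plcg2 followed Cd33 (r = 0.542). The other 7 pairs of genes with myeloid roles lay between -0.0326 and 0.209, and Inpp5d also followed Sorl1 (r = 0.481). Among 18933 genes the closest to Inpp5d were the microglial receptor gene Csf1r (r = 0.721) and Nckap1l (r = 0.693), and the closest to Spi1 was the chemokine gene Ccl6 (r = 0.694), then Fam162a (r = 0.624). Cd33 was nearest to the Toll-like receptor chaperone gene Unc93b1 (r = 0.694) and Gm45353 (r = 0.668). Plcg2 stood nearest to Ralgapa2 (r = 0.78) and the receptor kinase gene Flt3 (r = 0.757), and its correlation with the mean of the 11 microglia markers was 0.229, against 0.588 for Inpp5d, 0.563 for Spi1, 0.498 for Cd33 and 0.36 for Abi3. The nearest genes of Abi3 were Mob2 (r = 0.593) and Osr1 (r = 0.573).

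Among the other genes, Sorl1 had the closest partners, the plexin gene Plxna4 (r = 0.887) and Pde4dip (r = 0.837). Abca7 was nearest to Skiv2l (r = 0.829) and Mroh1 (r = 0.8), Picalm to the trafficking gene Trappc8 (r = 0.77) and the kinase gene Pak2 (r = 0.763), Clu to Prdx6 (r = 0.709) and U2af1 (r = 0.674), and Bin1 to the adaptor gene Gga1 (r = 0.603) and the elongation factor gene Eef2 (r = 0.602).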

How the data were processed

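Reads from TruSeq RNA v2 libraries of TRIZOL-extracted tissue were aligned by the authors to mm10 with STAR and assigned to genes with HTSeq, and the deposited files hold these raw read counts per Ensembl gene, without normalization. The annotation release and the strand setting are not given in the sources used here. Symbols, exon lengths and GC content came from GENCODE M21.

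The genes, lists and tests were chosen with earlier results of these data known. Groups followed the GEO labels, and no sample was left out of the main fits. Each of the 8 comparisons was fitted across all genes of the mice involved with edgeR 4.0.16 (glmQLFit, glmQLFTest, TMM, filterByExpr) in R 4.3.3, and genes were called at an adjusted p under 0.05. The study's own minimum log2 fold (0.25 for Fmn2 comparisons, 0.5 for APP comparisons) was an alternative, as were DESeq2 1.42.0, RLE factors, no filter, each mouse left out, the replicate number as a block, gene length and GC correction and lane. Log2 CPM used a prior count of 2. Named were all 10 genes, the 2 genes nearest to each by within-group Pearson correlation, and at most 4 called genes of each other list by absolute log2 fold change. In the lists, Trem2, Blnk and Mef2c count under 2 lists. A marker of the oligodendrocyte list is not reported here and was left out of its sums and counts. The scripts were tested on simulated data. Counting error is larger for genes of few reads.

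Same-numbered mice did not come from stated pairs, and the correlations of their deviations ranged from -0.288 to 0.272, so the replicate block was kept as an alternative. Figures were drawn with matplotlib 3.10.9.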

Additional observations from a re-analysis of the deposited data

Results flagged for a closer look

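Among 70 sets of 1 gene in 1 group of 5 to 9 mice, 6 had a mouse set apart from the others by Dixon's criterion, and chance gives about 1 in 20. Inpp5d reached 14.5 CPM in replicate 8 labelled FMN2 +/+ APP, with the other 8 mice at 8.02 to 10.3 CPM. Plcg2 reached 13.9 CPM in Fmn2-/- replicate 1 of 3 months, against 8.57 to 9.64 CPM, the only mouse of its group on lane 5. Clu reached 783 CPM in PFC APP replicate 5, against 649 to 696 CPM. Spi1 reached 4.5 CPM in replicate 2 labelled FMN2-/-_APP, against 1.92 to 2.53 CPM, and Abca7 reached 18.5 CPM in replicate 1 of that group, against 10.8 to 13.9 CPM. Abca7 was at 7.68 CPM in wild-type replicate 2 of 3 months, against 8.65 to 9.01 CPM. None of these mice, left out alone, changed a call of the gene it stood apart in.

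The log2 change with APP was higher in the PFC than in the DG experiment by 0.4649 for Inpp5d, 0.7822 for Plcg2, 0.247 for Picalm, 0.7762 for Spi1 and 0.6787 for Cd33, by edgeR's test of the difference itself (adjusted p from 0.00155 to 0.00973). With gene length and GC correction Picalm was at 0.028 (adjusted p = 0.739). Region, labelled age, lane and experiment cannot be told apart in it.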

How the results depend on the processing

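The 4 genes called with APP in the PFC kept direction and call in all 19 alternatives of each, with adjusted p of at most 0.00719. With the replicate number as a block, alone or with gene length and GC correction, the PFC contrast called 4 of the 10 genes and both Fmn2 contrasts and the cross 0. Over all genes the PFC contrast called 536 and 581 in these fits. The block kept only replicate numbers present in both groups, 4 pairs at 3 months, 3 at 8 months, 7 in the cross and 6 in the PFC. Blocking and the smaller number of mice therefore cannot be told apart outside the PFC. In the cross 1 gene, Sorl1, was called with lane as a covariate, when 314 were called over all genes, and 0 to 1 over the fits without 1 mouse. The DG amyloid contrast called 0 of 10 genes with the study's minimum fold, and 0 using only libraries labelled FMN2-/-_APP against Fmn2-/- mice, an alternative added after seeing the data. Over all genes these fits called 2905 and 3753. Against wild type alone, also added, Bin1 in those libraries was at 0.0048 (adjusted p = 0.962), Abca7 at 0.596 (adjusted p = 0.00281) and Clu at 0.215 (adjusted p = 0.0274), of which Abca7 and Clu were called. Sorl1 was at -0.12 there and not called (adjusted p = 0.245), and 6421 genes were called over all. Fits of libraries labelled FMN2 +/+ APP alone, also added, kept Picalm, Sorl1 and Bin1 called lower against wild-type and against Fmn2-/- mice. In the whole DG amyloid contrast Picalm was at 0.0129 with gene length and GC correction. In the same contrast Clu was called without Fmn2-/- replicate 2 (0.15, adjusted p = 0.0118) and Abca7 without replicate 8 labelled FMN2 +/+ APP (0.26, adjusted p = 0.0458). The comparison of APP contrasts called 3 of 10 genes with the minimum fold, which removed Inpp5d and Picalm, and 4 with gene length and GC correction, added after seeing the data, which removed Picalm (0.0279). Over all genes these fits called 2031 and 4854. Between wild-type PFC and DG the minimum fold left 6 of 9 genes, without Bin1, Picalm and Sorl1, and the added correction left 8, with Bin1 at -0.173 and Abi3 not called (0.355). Over all genes these fits called 7508 and 11919. In wild-type mice, Spi1 was called higher in the PFC without 3-month replicate 2 (0.37, adjusted p = 0.0266). Over the fits without 1 mouse the count over all genes ran from 3 to 54 at 3 months, 4 to 3417 at 8 months, 8 to 2846 for the change with age and 121 to 369 in the cross. Over all genes the 8-month contrast called 166 genes, and 5 with Fmn2-/- replicates 2 and 3 summed, 4 with the replicate block and its fewer mice, 10 with gene length and GC correction, 3 with lane, 774 with DESeq2 and 1124 without a filter, while 0 of the 10 genes were called in each. At 3 months 5 genes became 157 with DESeq2. The cause of these changes was not tested. Depth limited Abi3 most.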
